A study of Homo sapiens and Mus musculus with 19 samples.

Results

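Promoter-divergent long noncoding RNAs (lncRNAs) are annotated lncRNA genes that start beside the start of a protein-coding gene, on the opposite strand, and are transcribed away from it. They were collected in K562, a human leukaemia cell line with erythroid features, by a rule of position: an annotated 5′ end within 2 kb of the 5′ end of a coding gene on the other strand, the pair pointing apart, and at least 10 counts in at least 3 of the K562 libraries. The annotation held 1612 such lncRNA genes, 1162 of them had a line in the count tables, and 786 reached the count minimum, out of 58721 genes per table. Of the 786, 38 reached the minimum in exactly 3 libraries and 5 through the libraries of 1 group alone, 468 reached it in all 12, and a further 66 candidates reached it in exactly 2 libraries and were left out. The 786 lncRNAs had 784 distinct coding partners, because 2 coding genes were shared between 2 lncRNAs, and for 782 lncRNAs the partner had a line of its own.

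The libraries were made from chromatin-associated RNA, the RNA that stays with the chromatin pellet after the cytoplasm and the soluble nuclear fraction are washed away, and the study asked how TET2, a dioxygenase that oxidises 5-methylcytosine, and MBD6, a protein with a methyl-CpG-binding domain, bear on that RNA. The 12 K562 libraries fell into 4 groups of 3: TET2 wild type with a control hairpin (WT shControl), TET2 wild type with a hairpin against MBD6 (WT shMBD6), TET2 knockout with the control hairpin (TET2 KO shControl) and TET2 knockout with the MBD6 hairpin (TET2 KO shMBD6). All 4 groups carried a lentiviral hairpin and were kept under puromycin, the MBD6 hairpin was a single sequence, and the 2 parental lines came as gifts from another laboratory, so that a difference between TET2 genotypes cannot be told apart from a difference between these lines. Gene counts per library ran from 52158403 to 102070223, and the labels do not say whether the 3 libraries of a group came from separate cultures, so p-values measure the spread between these libraries.

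The targeted genes were checked first, as CPM, the counts scaled to a common library size. MBD6 lay at 38.6 to 43.3 CPM in WT shControl, 25.7 to 31.0 in WT shMBD6 and 29.4 to 30.8 in TET2 KO shControl, and the libraries labelled TET2 KO shMBD6 held 30.6 to 38.3 CPM, which was not lower than their control. TET2 RNA was 118 to 124 CPM in WT shControl and 127 to 131 CPM in TET2 KO shControl, 91.6 to 100.9 CPM in the libraries labelled TET2 KO shMBD6 (log2 fold change -0.44 from their control, edgeR adjusted p = 7.24e-11), and counts over a whole gene do not show a small edit. Results drawn on the libraries labelled TET2 KO shMBD6 therefore describe those libraries and not a loss of MBD6 RNA. The summed level of 10 erythroid markers ran from 807 to 832 CPM in WT shControl, 538 to 554 after shMBD6 in WT, and in the knockout 463 to 470 with shControl and 650 to 663 with shMBD6, with the globin genes HBG2 and HBE1 listed at 0 in all 12 libraries. A 0 can also arise where genes overlap on the same strand, since shared reads were set aside. Whether this holds for HBG2 and HBE1 was not tested. B lymphoid, T lymphoid and stromal markers each summed to under 5 CPM in every library.

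Most active mammalian promoters fire in both directions. RNA polymerase II enters the coding gene on one side and, on the other, makes an upstream antisense transcript that in most cases ends early at a poly(A) signal or through the Integrator complex and is degraded by the nuclear RNA exosome. Splice sites near the start of the coding gene protect its transcript from early ending. Some upstream transcripts are longer and stable enough to be annotated as lncRNA genes, and chromatin-associated RNA, which is rich in nascent transcripts, holds such RNAs at higher levels than cytoplasmic RNA does.

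The 5′ ends of the 2 genes of a pair lay close together. The median distance was 152.5 bases, with quartiles at 81.25 and 334.75 and a range of 1 to 1990, and 560 of the 786 pairs lay within 300 bases. To show what such a shared start looks like, the 200 bases centred between both starts are printed for the 8 pairs with the smallest distance among the lncRNAs named for the size of a change in level or in ratio in the 3 comparisons, read 5′ to 3′ on the strand of the coding gene in genome build hg38. Capitals mark the motifs found, on either strand: the GC box GGGCGG, the CCAAT box CCAAT, the ETS motif CCGGAAG and the consensus motif of NRF1 (the 10-base palindrome in the UBAC2-AS1 line). In each line the lncRNA starts to the left and runs leftwards, and the coding gene starts to the right and runs rightwards.

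HULC: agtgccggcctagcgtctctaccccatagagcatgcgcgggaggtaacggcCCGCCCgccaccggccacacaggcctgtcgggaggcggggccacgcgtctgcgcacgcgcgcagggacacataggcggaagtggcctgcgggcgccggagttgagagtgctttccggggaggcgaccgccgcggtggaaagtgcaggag
ENSG00000262227: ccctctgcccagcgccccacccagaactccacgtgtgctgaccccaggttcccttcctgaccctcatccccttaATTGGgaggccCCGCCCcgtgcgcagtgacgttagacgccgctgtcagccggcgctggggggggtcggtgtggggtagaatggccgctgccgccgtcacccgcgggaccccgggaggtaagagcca
UBAC2-AS1: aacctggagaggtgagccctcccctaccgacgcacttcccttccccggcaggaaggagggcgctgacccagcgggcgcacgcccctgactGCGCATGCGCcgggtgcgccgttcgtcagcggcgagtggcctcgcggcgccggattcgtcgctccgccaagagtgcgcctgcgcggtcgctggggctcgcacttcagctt
RB1-DT: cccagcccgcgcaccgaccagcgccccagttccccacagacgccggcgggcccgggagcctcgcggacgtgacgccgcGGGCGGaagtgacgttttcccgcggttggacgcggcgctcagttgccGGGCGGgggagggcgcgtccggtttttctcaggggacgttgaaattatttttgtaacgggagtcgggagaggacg
OSMR-DT: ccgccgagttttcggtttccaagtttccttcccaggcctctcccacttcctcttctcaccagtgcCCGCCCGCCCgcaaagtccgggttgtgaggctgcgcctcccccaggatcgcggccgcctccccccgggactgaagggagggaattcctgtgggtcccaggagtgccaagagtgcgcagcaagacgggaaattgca
TM4SF19-AS1: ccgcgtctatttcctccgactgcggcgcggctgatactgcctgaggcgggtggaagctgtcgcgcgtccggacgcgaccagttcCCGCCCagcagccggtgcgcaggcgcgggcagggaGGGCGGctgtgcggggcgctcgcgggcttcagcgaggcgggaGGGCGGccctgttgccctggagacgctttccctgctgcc
B3GAT1-DT: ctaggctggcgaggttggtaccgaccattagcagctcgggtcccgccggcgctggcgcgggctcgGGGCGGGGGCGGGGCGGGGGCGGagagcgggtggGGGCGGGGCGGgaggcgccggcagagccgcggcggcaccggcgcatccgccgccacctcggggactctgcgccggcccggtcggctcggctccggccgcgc
LINC01424: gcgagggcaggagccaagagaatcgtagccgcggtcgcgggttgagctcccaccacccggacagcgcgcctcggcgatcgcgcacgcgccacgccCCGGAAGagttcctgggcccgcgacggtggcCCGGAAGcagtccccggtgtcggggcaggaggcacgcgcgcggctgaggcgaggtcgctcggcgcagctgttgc

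The first sequence is chr6:8435465-8435664 on the minus strand, where HULC (so named in release 44 of the GENCODE annotation) and SLC35B3, a nucleotide sugar transporter, start 7 bases apart, at positions 97 and 104 of the line. The next is chr17:4987583-4987782, minus strand, with ENSG00000262227 and CAMTA2, a calmodulin-binding transcription activator, 14 bases apart. UBAC2-AS1 and UBAC2, a protein of the endoplasmic reticulum, start 17 bases apart in chr13:99200666-99200865, plus strand, and RB1-DT and RB1, the retinoblastoma tumour suppressor, start 24 bases apart in chr13:48303633-48303832, plus strand. OSMR-DT and OSMR, the oncostatin M receptor, lie 29 bases apart in chr5:38845744-38845943, plus strand. TM4SF19-AS1 and DYNLT2B, a dynein light chain, lie 31 bases apart in chr3:196318215-196318414, minus strand. B3GAT1-DT and B3GAT1, the glucuronyltransferase that makes the CD57 epitope, lie 42 bases apart in chr11:134412164-134412363, minus strand. LINC01424 and UBE2G2, a ubiquitin-conjugating enzyme, lie 57 bases apart in chr21:44801755-44801954, minus strand.

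All 8 windows were rich in G and C, from 64.5% in the OSMR window to 82.5% in the B3GAT1 window, which held 6 GC boxes. The same held for the whole set. Over the 300-base promoter of each coding partner (250 bases before its 5′ end and 50 from there on), the median GC content was 67.3% and the median ratio of observed to expected CpG was 0.881, with 90.9% of promoters at a ratio of at least 0.6. The 11528 other coding genes with a mean of at least 1 CPM had 62.3%, 0.786 and 71.1%, and all 19818 coding promoters had 60.3%, 0.697 and 58.4%.

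Motif matches were counted on both strands of the same 300 bases. A GC box was present in 74.7% of partner promoters, 60.5% of the other expressed coding promoters and 52.5% of all coding promoters. The ETS motif CCGGAAG was present in 20.5%, 15.3% and 11.9%, the CCAAT box in 40.1%, 36.1% and 36.0%, and NRF1 in 2.81%, 2.03% and 1.48%. The TATA motif TATAAA went the other way, with 4.46% of partner promoters, 7.60% of other expressed and 10.8% of all coding promoters. The YY1 motif AAGATGGC (3.83%, 4.02% and 3.02%) and the CREB motif TGACGTCA (2.81%, 2.72% and 2.28%) had shares near those of the other expressed promoters and above those of all coding promoters. The erythroid GATA motif AGATAA (5.61%, 7.07% and 8.72%) had its smallest share in partner promoters. These matches describe letters in a window and not bound sites.

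The first 1000 bases of both sides differed in the letters that bear on early ending. The poly(A) signal AATAAA, counted in the direction of transcription, occurred at least once in the first 1000 bases of 36.0% of the lncRNAs and of 15.4% of their coding partners, against 20.1% of other expressed coding genes. In 246 pairs the lncRNA side held more of these signals than the coding side, in 75 it held fewer and in 465 both held equal numbers. The 5′ splice site letters GTAAGT were present in 15.6% of the lncRNA sides, 11.9% of the coding sides and 16.5% of other expressed coding genes. GC content, which alone alters the number of AT-rich words, had a median of 61.8% on the coding side and of 51.45% on the lncRNA side.

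Levels of the 786 lncRNAs were low and skewed. The median of the mean over the 12 libraries was 0.880 CPM, with quartiles at 0.245 and 4.01 and a maximum of 549, whereas the coding partners had a median of 27.3 CPM. A mean of at least 1 CPM was reached by 372 lncRNAs, at least 10 CPM by 115 and at least 100 CPM by 17, and the 10 highest held 37.6% of all their counts. Together they took 0.741% to 0.811% of the gene counts of a library, and their partners took 6.53% to 6.72%. Divided by the length of the gene, the level of the lncRNA exceeded that of its partner in 150 of 756 pairs with values for both (19.8%), and the partner was higher by a median of 5.42-fold.

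**Figure D1:**
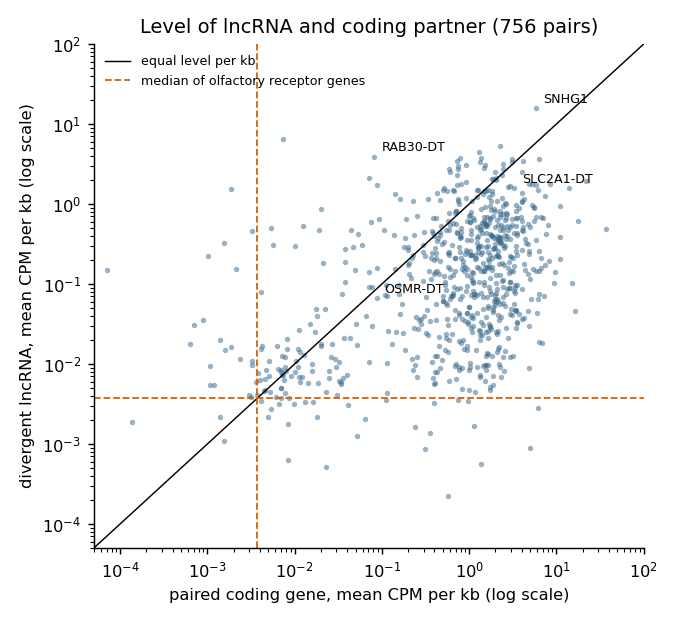
Mean level over the 12 libraries in CPM per kb of gene length, of the coding partner (horizontal, log scale) and of the divergent lncRNA (vertical, log scale), with 1 point per pair. The solid line marks equal levels and the dashed lines the median of 351 olfactory receptor genes (0.00372 CPM per kb). Most of the 756 pairs lie below the line of equality.

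Olfactory receptor genes, most of which are silent outside the olfactory epithelium, served as a gauge of signal in silent genes. Their median over 351 genes was 0.00372 CPM per kb, 755 of the 786 lncRNAs lay above it, and 539 lay at 10 times that level or more. The lncRNAs had been kept by a count minimum in these same libraries, and the receptor genes had no such minimum. The numbers above the gauge are therefore in part set by that rule and do not test whether the lncRNAs exceed silent genes. The gauge was not equal between groups: the share of receptor genes with at least 1 count was 28.8% to 37.9% in WT shControl and 48.1% to 49.9% in WT shMBD6, and in TET2 KO it was 22.8% to 25.4% with shControl and 14.8% to 21.1% with shMBD6. Their mean level, without the lowest and highest 25% of genes, was 0.00066 CPM per kb in WT shControl and 0.00435 in WT shMBD6. In TET2 KO it was 3.45e-06 with shControl and 0 with shMBD6. A level per kb adds more to a longer gene, so a minimum of 1 CPM does not set long lncRNAs apart from it. The part of this difference in the values of very low or long lncRNAs was not tested. The lncRNAs named below as changed between conditions have a mean of at least 1 CPM unless stated. A gene overlapping on the same strand also touches some values, since shared reads were set aside: 159 of the 786 lncRNAs had one, among them SNHG1, TMC3-AS1, PPP1R3B-DT, OSMR-DT, SLC2A1-DT, LINC01277, ALOX12-AS1 and HULC. The coding partner had one in 274 of the 782 pairs whose partner had a line, so levels, calls and ratios of partners are touched as well.

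The lncRNAs with the 10 highest levels per kb included 2 hosts of small nucleolar RNAs. SNHG1 starts 51 bases from SLC3A2, the heavy chain of amino acid transporters, and lay at 81.3 ± 4.11 CPM in WT shControl (SD, n = 3), 40.5 ± 1.14 in WT shMBD6, and in TET2 KO at 49.1 ± 5.25 with shControl and 77.5 ± 2.89 with shMBD6. SNHG19, which starts 293 bases from the ubiquitin ligase gene TRAF7, lay at 3.91 ± 0.210, 1.67 ± 0.0705, 2.33 ± 0.280 and 2.97 ± 1.01 CPM in the same order of groups. Genes of small nucleolar RNAs lie inside both hosts on the same strand, so reads over those were set aside and the host levels are lower bounds. Also among the 10 highest were ENSG00000227598 beside CEP43, ENSG00000268858 beside TPD52L2, ALOX12-AS1, RAB30-DT, ENSG00000284602 beside the splicing factor gene SYF2, MHENCR beside GMEB2, ENSG00000270019 beside ACTR3 and ENSG00000273619 beside the ribosomal protein gene RPS21.

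The first comparison asked what differs with TET2 genotype under the control hairpin. Of 774 lncRNAs that passed the expression filter, 106 were higher and 118 lower in TET2 KO shControl than in WT shControl (edgeR's quasi-likelihood test, adjusted p under 0.05 over all genes), or 28.9%, beside 45.8% of all 26023 genes tested, of which 23.5% were higher and 22.3% lower. Their median log2 fold change was -0.26, against -0.05 over all genes. Among the 372 lncRNAs with at least 1 CPM, 96 were higher and 86 lower (48.9%). No such minimum was set for the share over all genes. Of the 721 coding partners tested, 230 were higher and 241 lower. The balance between higher and lower depended on scaling. When libraries were scaled by total gene counts, 79 lncRNAs were higher and 168 lower, and 146 partners were higher and 351 lower, as the median of all genes moved to -0.23.

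The largest rises in TET2 KO included the lncRNAs beside a glycosyltransferase gene and a cytokine receptor gene. B3GAT1-DT (chr11:134412284-134505665, plus strand) was at 49.3, 41.6 and 41.3 CPM in the 3 WT shControl libraries and at 284, 267 and 281 CPM in the 3 TET2 KO shControl libraries. Its partner B3GAT1 went from 1.47, 1.65 and 1.63 CPM to 56.8, 62.5 and 58.2. No library of either group overlapped the other. For lncRNAs named by the size of a change in the 3 comparisons this was a condition of naming. The log2 fold changes were 2.66 ± 0.05 for the lncRNA (SE, edgeR adjusted p = 4.34e-28) and 5.22 ± 0.11 for the coding gene (adjusted p = 5.64e-28). The ratio of lncRNA to coding RNA fell by 2.56 on the log2 scale (limma, adjusted p = 9.1e-12). The lncRNA was thus present in WT cells that had little of the coding RNA.

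OSMR-DT (chr5:38682581-38845829, minus strand) showed both genes of the pair moving by similar amounts. The lncRNA was at 3.42, 2.72 and 3.66 CPM in WT shControl and 19.4, 16.0 and 19.0 CPM in TET2 KO shControl. OSMR went from 3.23, 3.78 and 3.78 CPM to 15.0, 13.7 and 15.7. The log2 fold changes were 2.48 ± 0.13 and 2.04 ± 0.13 (adjusted p = 3.93e-17 and 4.15e-15, edgeR).

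Other lncRNAs rose with little or no change in the partner. LINC01436 (chr21:36005137-36007838) starts 470 bases from RUNX1, a master transcription factor of blood formation, and lay at 0.374, 0.0767 and 0.279 CPM in WT shControl against 2.23, 2.28 and 2.41 in TET2 KO shControl, a log2 fold change of 3.27 ± 0.43 (adjusted p = 1.14e-07). RUNX1 itself fell by 0.11 on the log2 scale (adjusted p = 2.1e-05). LINC01277, beside the androgen-induced gene AIG1, rose from 4.22 ± 0.560 to 20.3 ± 1.18 CPM, a log2 fold change of 2.27 ± 0.13, while AIG1 changed by 0.25 ± 0.02. TMC3-AS1, beside the lipid transfer gene STARD5 on chromosome 15, rose from 13.4 ± 0.350 to 102 ± 1.79 CPM. The other 3 of the 8 largest rises were PPP1R3B-DT (log2 fold change 2.94 ± 0.12), beside a regulator of glycogen synthesis that rose by 1.23 ± 0.13, NOVA1-DT (2.44 ± 0.29) and MIR3659HG (2.10 ± 0.23), beside POU3F1, which was near 0 in all libraries.

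Among the largest falls in TET2 KO was that of SLC2A1-DT. The lncRNA (chr1:42959049-42996814, plus strand) starts 156 bases from SLC2A1, the glucose transporter GLUT1, and was at 86.0, 90.4 and 90.8 CPM in WT shControl and 29.2, 28.1 and 31.8 in TET2 KO shControl. SLC2A1 fell in parallel, from 165, 157 and 156 CPM to 64.4, 57.7 and 61.5. The 2 genes had log2 fold changes of -1.58 ± 0.06 and -1.38 ± 0.04 (adjusted p = 2.27e-21 and 3.82e-23, edgeR), and their ratio did not pass the test (adjusted p = 0.075, limma). ZNF582-DT and its partner ZNF582, a zinc finger gene, also fell together, with log2 fold changes of -1.90 ± 0.40 and -0.81 ± 0.20.

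In 3 of the pairs with the largest falls named here the coding gene moved little or in the other direction. LINC01126 (chr2:43227210-43228855), beside ZFP36L2, an RNA-binding protein that promotes mRNA decay, went from 3.72, 3.74 and 3.23 CPM to 1.73, 1.39 and 1.17 (log2 fold change -1.31 ± 0.24, adjusted p = 2.91e-05), and ZFP36L2 did not pass the test (-0.23 ± 0.13). ENSG00000262227 fell by 1.53 on the log2 scale while CAMTA2, 14 bases away, gave 0.04 ± 0.07. SLC30A6-DT, beside a zinc transporter gene, had -1.41 ± 0.43 and SLC30A6 rose by 0.24 ± 0.04. ENSG00000246308 beside EIF4G2, a translation factor, had -1.75 ± 0.32 and its partner -0.33 ± 0.04, and ADAM7-AS1 beside the neurofilament gene NEFM had -1.80 ± 0.30, with NEFM near 0. For SLC30A6-DT the call was lost without replicate 1 of WT shControl (-1.08) and without replicate 3 of TET2 KO shControl (-1.17).

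The second comparison set WT shMBD6 against WT shControl. Of the 774 lncRNAs, 68 were higher and 126 lower (25.1%), beside 42.5% of all genes tested (17.7% higher, 24.7% lower). Among the 372 with at least 1 CPM, 54 were higher and 117 lower (46.0%). The median log2 fold change of the 774 was -0.10, against 0.10 over all genes. The paired coding genes leaned further to the lower side, with 122 higher and 355 lower of 721. With DESeq2 size factors the lncRNAs split into 92 higher and 109 lower and the partners into 164 and 248, and with total counts into 91 and 113 and into 159 and 261, as the median of all genes moved to 0.21 and 0.19. A class of 2702 intergenic lncRNAs, at least 5 kb from any coding gene, gave 610 higher and 116 lower in the same fit.

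The 8 largest rises with shMBD6 in WT cells included LINC01436, OSMR-DT and MIR3659HG, which were also among the rises in TET2 KO; both comparisons share the WT shControl libraries. OSMR-DT was at 11.2, 14.4 and 13.9 CPM in WT shMBD6, above all 3 control libraries, a log2 fold change of 2.01 ± 0.13 (adjusted p = 2.24e-14), and OSMR rose by 1.31 ± 0.13. C21orf62-AS1 (chr21:32772100-33019751), beside the splicing gene PAXBP1, was at 1.09, 0.815 and 0.627 CPM in WT shControl and 2.80, 3.16 and 3.37 in WT shMBD6, and rose by 1.88 ± 0.29 while PAXBP1 fell by 0.26 on the log2 scale. IL12A-AS1 rose by 1.67 ± 0.30, with its partner C3orf80 near 0. SOCS3-DT, beside the cytokine signalling inhibitor SOCS3, was listed at 0, 0.480 and 0.498 CPM in the controls and at 0.923, 1.36 and 0.597 with shMBD6. Its call (1.51 ± 0.57, adjusted p = 0.033) was lost under DESeq2, in the fit of both groups alone and without WT shControl replicate 1 or WT shMBD6 replicate 1 or 2, with log2 fold changes from 0.958 to 1.66. ENSG00000285664 beside GNPNAT1 and ENSG00000285579 beside LACTB2 completed the list, at 1.49 ± 0.39 and 1.41 ± 0.23.

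Of the 8 largest falls, 7 were in lncRNAs under 20 kb, as were 72 of the 117 lncRNAs with at least 1 CPM called lower. RB1-DT (chr13:48296162-48303720, minus strand) was at 1.59, 1.45 and 1.07 CPM in WT shControl and 0.405, 0.60 and 0.526 in WT shMBD6, while RB1, 24 bases away, went from 119, 124 and 119 CPM to 138, 149 and 141. The lncRNA fell by 1.43 on the log2 scale (edgeR adjusted p = 0.00995) and RB1 rose by 0.25 ± 0.04 (adjusted p = 1.5e-06). The groups did not overlap for either gene, which for the lncRNA was a condition of naming. MPC1-DT, beside a subunit of the mitochondrial pyruvate carrier, had -1.29 ± 0.38 while MPC1 rose by 0.20 ± 0.06. Without WT shMBD6 replicate 2 the MPC1-DT call was lost (-0.97), and that of SLC30A6-DT (-1.45 ± 0.43) was lost without WT shControl replicate 1 (-1.13) or WT shMBD6 replicate 1 (-1.14).

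UBAC2-AS1 fell from 4.63 ± 0.891 to 1.72 ± 0.241 CPM (-1.43 ± 0.24, adjusted p = 9.57e-06) and UBAC2 by 0.32 on the log2 scale. STPG3-AS1, which starts 1830 bases from NELFB, a subunit of the factor that pauses RNA polymerase II, fell from 5.49 ± 0.843 to 2.13 ± 0.407 CPM, and NELFB gave 0.01 ± 0.07. ECI2-DT, ENSG00000246308 and ENSG00000260000, beside the helicase gene ASCC3, had -1.44 ± 0.43, -1.40 ± 0.32 and -1.30 ± 0.36. The high-level SNHG1 fell by 1.00 on the log2 scale (adjusted p = 1.34e-15) and SLC3A2 by 0.51.

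**Figure D2:**
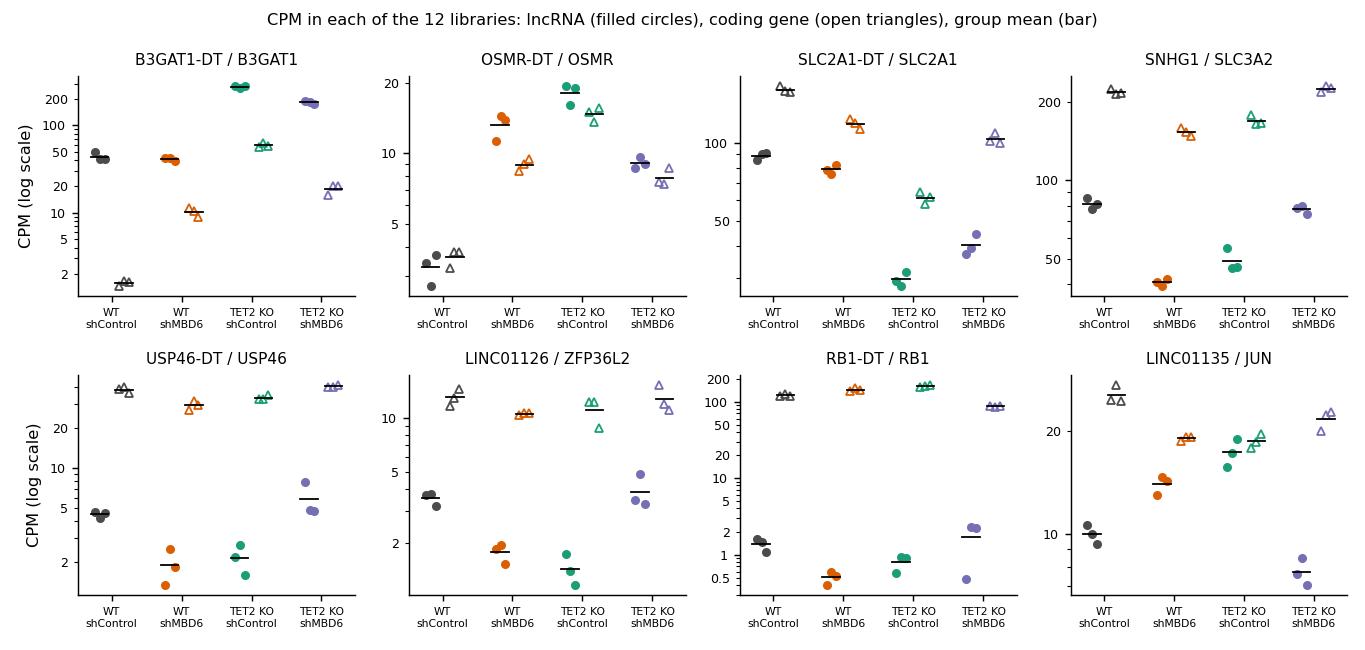
CPM in each of the 12 libraries (log scale) for 8 pairs, with filled circles for the lncRNA, open triangles for the coding gene and a bar at each group mean. B3GAT1-DT stands well above its partner in WT shControl and OSMR-DT moves with its partner, whereas RB1-DT falls in WT shMBD6 as RB1 rises.

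The next comparison set the libraries labelled TET2 KO shMBD6 against TET2 KO shControl. Of the 774 lncRNAs, 83 were higher and 85 lower (21.7%), beside 36.4% of all genes tested (15.7% higher, 20.6% lower). Among the 372 with at least 1 CPM, 71 were higher and 71 lower (38.2%). The median log2 fold change of the 774 was 0.10, against -0.07 over all genes, and partners split evenly, with 197 higher and 204 lower. With total gene counts the lncRNAs split into 129 higher and 68 lower and the partners into 303 and 139.

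The 8 largest rises were all in lncRNAs under 20 kb, as were 45 of the 71 lncRNAs with at least 1 CPM called higher. USP46-DT (chr4:52659406-52661668), beside a ubiquitin-specific protease gene, was at 2.16, 2.68 and 1.59 CPM in TET2 KO shControl and at 7.87, 4.85 and 4.78 in TET2 KO shMBD6, a log2 fold change of 1.45 ± 0.24 (adjusted p = 8.6e-06), while USP46 rose by 0.28 ± 0.07. LINC01126 rose by 1.43 ± 0.24 to 3.87 ± 0.824 CPM, with ZFP36L2 at 0.20 ± 0.13. TM4SF19-AS1 had the largest rise (1.67 ± 0.31), and its nearest partner DYNLT2B was listed at 0 in all 12 libraries. Whether that 0 comes from reads set aside over an overlapping gene was not tested. LINC01424 (1.25 ± 0.27), THOC1-DT (1.23 ± 0.28), ENSG00000272631 beside the receptor gene BMPR1A (1.23 ± 0.26) and RNASEH1-DT (1.24 ± 0.32) rose as well, while UBE2G2 and THOC1, a subunit of the RNA export complex THO, did not pass the test and BMPR1A fell by 0.21 on the log2 scale. ENSG00000267011 beside HDGFL2 completed the 8 (1.33 ± 0.43), and its call was lost without TET2 KO shControl replicate 1 (0.954) or TET2 KO shMBD6 replicate 1 (0.944).

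The 8 largest falls were all in lncRNAs of 20 kb or more, as were 65 of the 71 lncRNAs with at least 1 CPM called lower. LINC01277 went from 20.3 ± 1.18 to 6.32 ± 0.795 CPM (-1.69 ± 0.13, adjusted p = 1.36e-12), with AIG1 at -0.42 ± 0.02. HULC, whose annotated gene runs through chr6:8435568-9294133, was at 8.02, 6.76 and 6.23 CPM in TET2 KO shControl and at 3.14, 1.84 and 2.99 in TET2 KO shMBD6 (-1.40 ± 0.19, adjusted p = 4.17e-07), whereas SLC35B3, 7 bases away, gave 0.01 ± 0.06. IL12A-AS1 (-1.47 ± 0.33), ENSG00000285579 (-1.30 ± 0.23), ENSG00000285919 beside NOX5 (-1.67 ± 0.20) and ENSG00000232732 beside C2orf69 (-1.76 ± 0.48) fell too. ERRFI1-DT (-1.64 ± 0.45) and ENSG00000250039 beside the potassium channel regulator KCNIP4 (-1.31 ± 0.42) were called in the fit of all groups but not in the fit of both groups alone. The call of ENSG00000250039 was also lost without TET2 KO shControl replicate 1 (-1.03) or TET2 KO shMBD6 replicate 1 (-0.84).

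In all 3 comparisons the direction of the change followed the length of the lncRNA gene. The split below was chosen after the values were seen, is given over the 372 lncRNAs with at least 1 CPM and has no test of its own. Between TET2 KO and WT under shControl, 5 of 86 lncRNAs under 5 kb were higher and 32 lower (median log2 fold change -0.45), whereas 39 of 68 lncRNAs of 100 kb or more were higher and 8 lower (median 0.35). With shMBD6 in WT cells the shortest class had 1 higher and 45 lower (median -0.70) and the longest 32 higher and 9 lower (median 0.25). The libraries labelled TET2 KO shMBD6 had 26 higher and 0 lower among the shortest (median 0.44) and 1 higher and 41 lower among the longest (median -0.41), but this comparison shares the TET2 KO shControl libraries with the genotype comparison, where they enter with the opposite sign. The genotype and WT shMBD6 comparisons share WT shControl in the same way, with the same sign, so the 3 comparisons are not separate observations of the pattern. The classes of 5 to 20 kb and 20 to 100 kb lay between these in each comparison, with medians of -0.11 and 0.09, -0.36 and -0.11, and 0.21 and 0.06. The signs of the medians in the shortest and the longest class were the same with DESeq2 size factors and with total gene counts in all 3 comparisons.

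**Figure D3:**
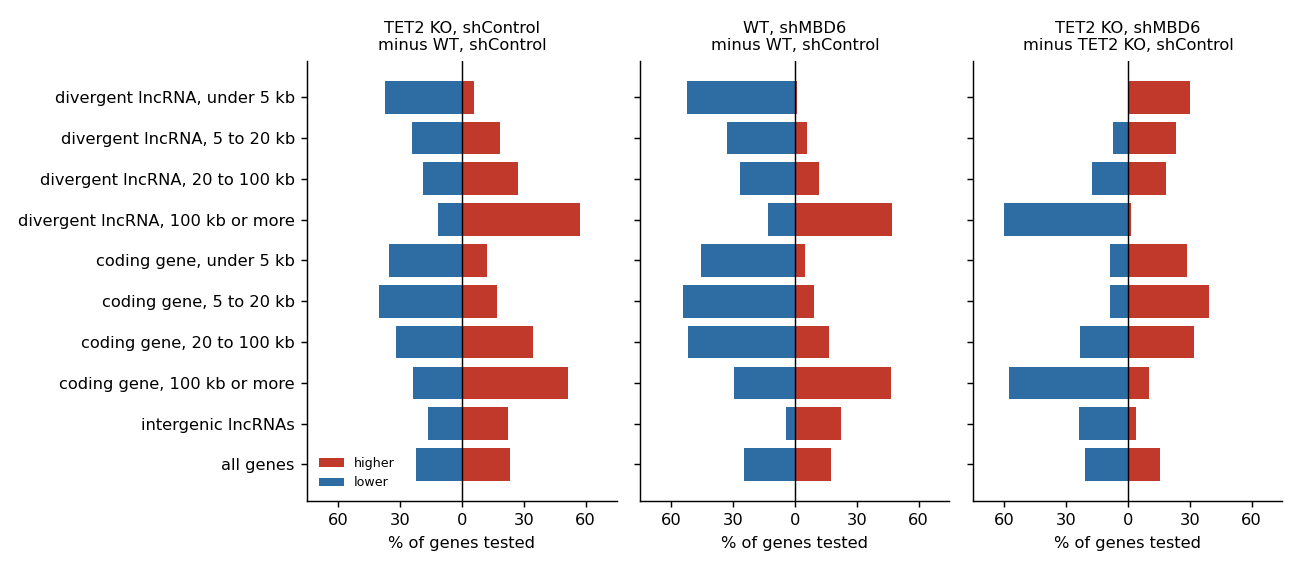
Share of tested genes called higher (right, red) and lower (left, blue) in each of the 3 comparisons, in percent, for divergent lncRNAs and coding genes with at least 1 CPM by annotated gene length, for intergenic lncRNAs and for all genes. The shortest and the longest divergent lncRNAs lean to opposite sides in every panel, and so do the shortest and longest coding genes at this scaling.

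Coding genes and other lncRNAs are given beside these for the same lengths. Among coding genes with at least 1 CPM, 84 of 683 under 5 kb were higher and 242 lower in TET2 KO, against 1595 higher and 727 lower of 3089 at 100 kb or more. With shMBD6 in WT the same classes gave 33 higher and 312 lower, and 1434 and 911, and in the libraries labelled TET2 KO shMBD6 they gave 195 and 60, and 313 and 1786. With total gene counts the longest coding genes had no lean in TET2 KO (1165 higher and 1148 lower, median -0.01), and their leans in the other 2 comparisons kept their side. Among other lncRNAs with at least 1 CPM, those of 100 kb or more leaned as the divergent ones did, with 390 higher and 133 lower, 436 and 61, and 41 and 436. Other lncRNAs under 5 kb did not in TET2 KO, with 63 higher and 44 lower (49 and 65 with total gene counts), and gave 24 and 76 with shMBD6 in WT and 42 and 36 in the libraries labelled TET2 KO shMBD6. The partners of the divergent lncRNAs were also split by the length of the lncRNA and not by their own. Beside lncRNAs under 5 kb, 20 of 81 partners were higher and 31 lower in TET2 KO, 10 and 44 with shMBD6 in WT, and 26 and 22 in the libraries labelled TET2 KO shMBD6. Beside lncRNAs of 100 kb or more, with 60 partners, the counts were 23 and 19, 11 and 33, and 14 and 20. With shMBD6 in WT the partners thus leaned lower beside the longest lncRNAs as well, and the difference from the lncRNAs was not tested. Among the 258 lncRNAs with no overlapping gene on the same strand the shortest and longest classes kept their sides, with 4 higher and 29 lower and 9 higher and 3 lower in TET2 KO. Gene lengths are those of GENCODE release 44, which can differ from the release 29 used for counting. The share of olfactory receptor genes with a count and their level per kb, given above, also differed between the groups. The part of these differences in the pattern was not tested.

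The fourth test asked whether the change with the MBD6 hairpin differed between genotypes, through the interaction of genotype and hairpin. Of the 774 lncRNAs, 167 had a higher and 109 a lower log2 fold change in TET2 KO than in WT (35.7%), beside 49.4% of all genes tested (23.9% higher, 25.5% lower). Of the 372 with at least 1 CPM, 143 had a higher and 81 a lower one (60.2%). Among lncRNAs under 20 kb with at least 1 CPM the split was 91 higher and 6 lower of 168, and at 20 kb or more it was 52 and 75 of 204. Coding genes with at least 1 CPM had 2018 higher and 369 lower of 3567 under 20 kb, and 3252 and 3120 of 8622 at 20 kb or more. Other lncRNAs with at least 1 CPM had 242 and 134 of 737, and 168 and 817 of 1363, at the same lengths. Differences between these splits were not tested. The MBD6 RNA itself had unlike log2 fold changes under the hairpin in the 2 genotypes (-0.57 in WT, adjusted p = 1.83e-07, and 0.19 in TET2 KO, adjusted p = 0.0574), so the interaction compares hairpin-labelled libraries and not equal losses of MBD6.

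Divergent pairs were then compared as pairs. Of 712 pairs with both genes tested, both were called in TET2 KO in 140, with the same direction in 97 (46 both higher, 51 both lower) and opposite directions in 43. With shMBD6 in WT the numbers were 87 in the same direction, 15 higher and 72 lower, and 36 opposite, and in the libraries labelled TET2 KO shMBD6 they were 57 (26 and 31) and 33. With total gene counts the pairs called in the same direction were 26 higher and 103 lower, 25 and 49, and 59 and 25, so these splits rest on the scaling. Across the 712 pairs the log2 fold changes of the 2 genes had Pearson's r of 0.314, 0.301 and 0.178 and Spearman's rho of 0.224, 0.197 and 0.122 in the 3 comparisons. These are descriptions over genes of the same libraries, which share depth and scaling and are not independent.

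**Figure D4:**
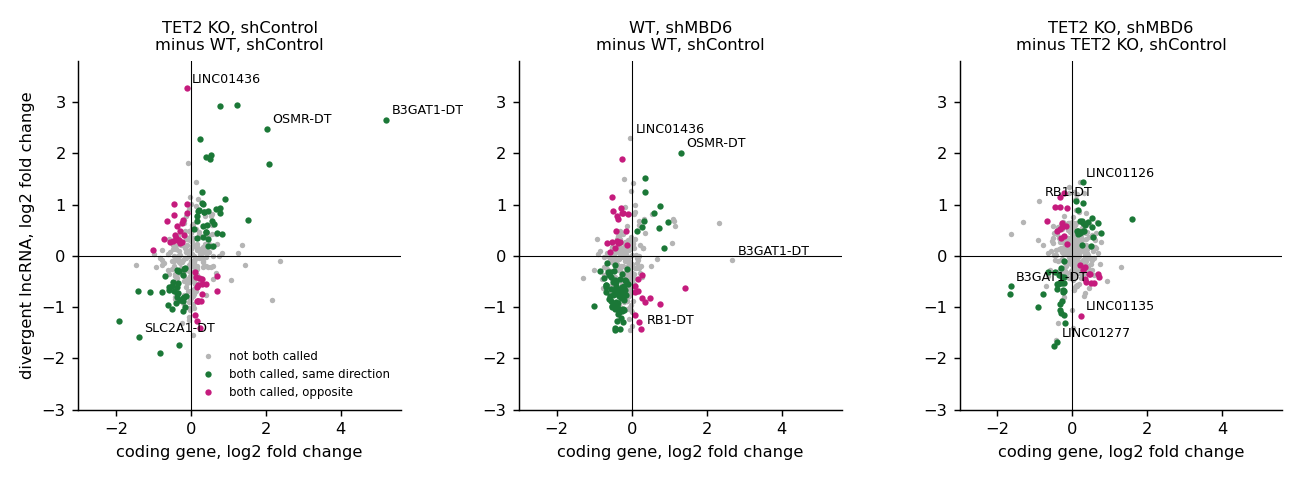
Log2 fold change of the coding partner (horizontal) and of the divergent lncRNA (vertical) in each of the 3 comparisons. Each point is 1 of the 329 pairs of tested genes with at least 1 CPM for both genes. Green points are pairs with both genes called in the same direction (72, 76 and 51) and pink points pairs called in opposite directions (39, 32 and 26).

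The same measures were taken in other pairs of neighbours. Between 329 pairs with at least 1 CPM for both genes, r was 0.383, 0.240 and 0.119 and rho 0.285, 0.164 and 0.0766. Between the same kind of lncRNA and the next coding gene along the chromosome, at a median distance of 50488.5 bases over all such pairs, r was 0.258, 0.0205 and 0.106 and rho 0.253, 0.0319 and 0.142 over 233 pairs. Between 623 pairs of coding genes that themselves share a divergent start, r was 0.439, 0.306 and 0.139 and rho 0.306, 0.223 and 0.179. The share in the same direction among pairs with both genes called was 64.9% (72 of 111), 70.4% (76 of 108) and 66.2% (51 of 77) with the paired coding gene and 67.7% (44 of 65), 66.7% (48 of 72) and 69.2% (27 of 39) with the next coding gene. Differences between these values were not tested.

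Agreement in direction was lowest where the 2 starts lay closest. Among pairs with at least 1 CPM for both genes and both called in TET2 KO, starts up to 100 bases apart gave 23 pairs in the same and 24 in opposite directions, those further apart but within 300 bases gave 31 and 9, and those beyond 300 bases gave 18 and 6. In the libraries labelled TET2 KO shMBD6 the 3 classes gave 17 and 16, 20 and 6, and 14 and 4. With shMBD6 in WT they gave 33 and 14, 29 and 11, and 14 and 7, so the order was not seen there, and with total gene counts the closest class gave 36 and 21 in TET2 KO and 29 and 18 in the libraries labelled TET2 KO shMBD6. These counts share their libraries and were not tested against each other.

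**Figure D5:**
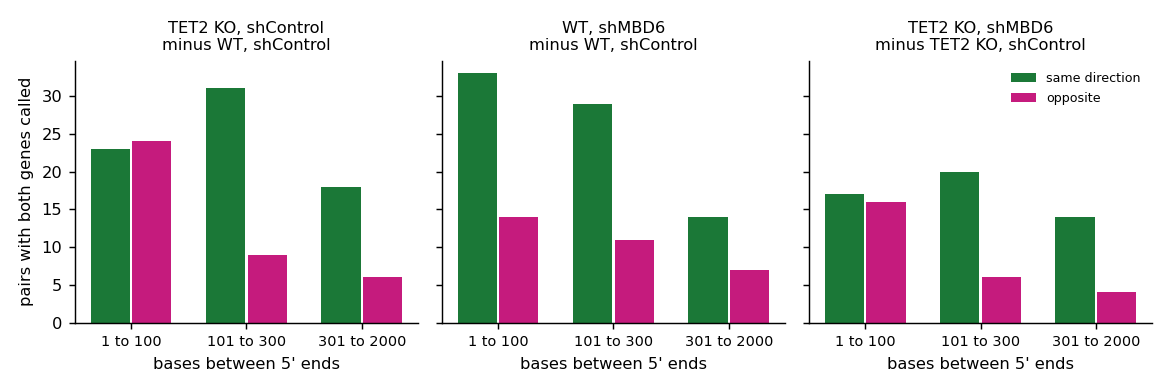
Number of pairs with both genes called in the same (green) and in opposite directions (pink) by the distance between the 2 annotated 5′ ends, in each of the 3 comparisons, over pairs with at least 1 CPM for both genes. In both panels for TET2 KO the closest class is split near evenly at this scaling (23 and 24, and 17 and 16), against 36 and 21 and 29 and 18 with total gene counts.

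The ratio of lncRNA to coding RNA was tested within each library, since a ratio does not depend on how libraries are scaled. Of 782 pairs the ratio was higher in 72 (9.21%) and lower in 89 (11.4%) in TET2 KO, 20.6% in all (limma). With shMBD6 in WT it was higher in 72 (9.21%) and lower in 63 (8.06%), 17.3% in all. In the libraries labelled TET2 KO shMBD6 it was higher in 69 (8.82%) and lower in 57 (7.29%), 16.1% in all, and in the interaction higher in 104 (13.3%) and lower in 102 (13%), 26.3% in all. Of the 161 ratio changes in TET2 KO, 37 had a call in the lncRNA alone, 41 in the coding gene alone, 36 in both genes with the same direction, 41 in both with opposite directions and 6 in neither.

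Several ratios changed through the coding gene. FGGY, a carbohydrate kinase gene, was at 168 CPM in WT shControl, 367 in WT shMBD6 and 751 in TET2 KO shControl as group means, and at 299 to 306 in the libraries labelled TET2 KO shMBD6, while FGGY-DT, 147 bases away, lay between 0.833 and 2.41 CPM and passed no test of the lncRNA. The ratio fell by 2.95 on the log2 scale in TET2 KO (adjusted p = 1.93e-05). PLEKHA6, a gene of a pleckstrin homology domain protein, rose by 2.37 ± 0.15 in TET2 KO and by 2.32 ± 0.15 with shMBD6 in WT, with PPP1R15B-AS1 at -0.11 ± 0.35 and 0.65 ± 0.35. PRKACB, a catalytic subunit of protein kinase A, rose by 1.07 ± 0.05 in TET2 KO and by 0.75 ± 0.05 with shMBD6 in WT, and PRKACB-DT had -0.47 ± 0.25 and -0.94 ± 0.25, of which the second was called.

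EPCAM, an epithelial adhesion gene, fell by 0.92 on the log2 scale with shMBD6 in WT and rose by 0.91 ± 0.16 in the libraries labelled TET2 KO shMBD6, while EPCAM-DT passed no test. ZDHHC12, a palmitoyltransferase gene, rose by 1.29 ± 0.28 in those libraries, with ZDHHC12-DT at -0.21 ± 0.26. In ZNF45-AS1 beside ZNF404 the ratio fell by 1.67 on the log2 scale in TET2 KO, a call that was lost without replicate 2 of WT shControl (-1.39) or of TET2 KO shControl (-1.46). LINC01498, beside the AMPylating enzyme gene FICD, rose by 1.15 ± 0.37 with shMBD6 in WT as FICD fell by 0.53 on the log2 scale.

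LINC01135 and JUN, which encodes a subunit of the AP-1 transcription factor, moved in opposite directions in every comparison. LINC01135 (chr1:58784384-58901109) was at 10.6, 9.96 and 9.32 CPM in WT shControl, 13.0, 14.7 and 14.2 in WT shMBD6. In TET2 KO it was at 15.8, 17.3 and 19.0 with shControl and at 7.60, 8.5 and 7.09 with shMBD6. JUN was at 24.7, 27.4 and 24.5, then 18.7, 19.2 and 19.3, then 17.9, 18.7 and 19.6, and then 20.1, 22.4 and 22.9 CPM. The lncRNA changed by 0.80 ± 0.11, 0.49 ± 0.11 and -1.17 ± 0.11 and JUN by -0.45 ± 0.08, -0.42 ± 0.08 and 0.22 ± 0.08 in the 3 comparisons, each with an adjusted p under the threshold (edgeR, highest 0.0354).

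The partners that belong to gene groups of interest in this cell type were few. RUNX1 was the only one of 44 haematopoietic transcription factors listed to have a divergent lncRNA among the members. Of 70 chromatin regulators, 4 had one. KIF9-AS1 beside SETD2, the methyltransferase of histone H3 lysine 36, rose from 63.9 ± 0.452 to 95.4 ± 2.15 CPM in TET2 KO (0.58 ± 0.04) with SETD2 at 0.33 ± 0.02. CHD1-DT and the remodeller gene CHD1 both fell in TET2 KO (-0.27 ± 0.07 and -0.37 ± 0.03) and with shMBD6 in WT (-0.41 ± 0.07 and -0.55 ± 0.03). LINC00938, beside the SWI/SNF subunit gene ARID2, and ENSG00000271265, beside ARID1B, passed no test in TET2 KO.

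Of 51 cell cycle and repair genes, 3 had a divergent lncRNA, and RB1-DT with shMBD6 in WT was the only lncRNA call among them in the 3 comparisons. MAD2L1-DT, beside a spindle checkpoint gene, did not pass the test in any of them, while MAD2L1 fell by 0.31 in TET2 KO and by 0.60 with shMBD6 in WT on the log2 scale. SRRM2-AS1, beside the splicing factor gene SRRM2, fell from 9.40 ± 0.972 to 6.44 ± 1.10 CPM in TET2 KO and to 6.12 ± 0.485 with shMBD6 in WT, while SRRM2 rose by 0.30 ± 0.03 in TET2 KO. Of the 7 stress and immediate early genes with a divergent lncRNA, 2 lncRNAs were higher and 0 lower in TET2 KO (LINC01135 and SOCS3-DT) and likewise with shMBD6 in WT. HSPA5, the chaperone BiP of the endoplasmic reticulum, rose by 0.72 ± 0.04 in the libraries labelled TET2 KO shMBD6 and HSPA5-DT gave 0.85 ± 0.58.

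Developmental transcription factor genes gave 10 members, most at very low levels. CRNDE, beside the homeobox gene IRX5, was the exception, at 92.8 ± 3.38 CPM in WT shControl, 77.5 ± 3.25 in WT shMBD6, 100.9 ± 0.785 in the knockout with shControl and 111 ± 3.22 in the libraries labelled TET2 KO shMBD6, while IRX5 had group means from 0.837 to 1.68 CPM. FENDRR, beside FOXF1, was at 0.111, 0.0480 and 0.408 CPM in WT shControl and at 0.0119, 0 and 0 in TET2 KO shControl, and LINC01248 beside SOX11 was listed at 0 in all 3 TET2 KO shMBD6 libraries. Their fold changes are not given, since the receptor gauge differs between the groups at this level.

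Genes for the machinery that ends or degrades upstream transcripts changed in these libraries as well. Of 22 tested genes for the nuclear exosome, its targeting complexes and the cap-binding complex, 4 were higher and 11 lower in TET2 KO, 0 and 17 with shMBD6 in WT (median log2 fold change -0.32), and 12 and 4 in the libraries labelled TET2 KO shMBD6 (0.23). SRRT, the cap-bound adaptor ARS2, fell by 0.61 on the log2 scale with shMBD6 in WT and ZCCHC8, of the exosome targeting complex, by 0.49. Of 31 Integrator and cleavage factor genes, 7 were higher and 11 lower, 1 and 21 (median -0.35), and 16 and 3 (0.15) in the same order. Of 15545 other coding genes tested, 26.3% were higher and 27.5% lower in TET2 KO, 19.6% and 34.2% with shMBD6 in WT, and 21.3% and 23.4% in the libraries labelled TET2 KO shMBD6. No minimum of 1 CPM was set for those genes. Coding genes with at least 1 CPM and under 20 kb gave 16.1% and 39.5%, 8.24% and 52.5%, and 37.4% and 8.66% in the same order. At 20 kb or more the shares were 40.7% and 28.8%, 27.3% and 43.7%, and 24.3% and 35.7%. These are changes in chromatin-associated RNA of the genes, and their part in the levels of the divergent lncRNAs was not tested.

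Chromosomes 15 and 8 stood out in the genotype comparison among the coding partners. On chromosome 15, 22 of 23 tested partners were higher in TET2 KO and 0 lower, with a median log2 fold change of 0.56, whereas of 27 divergent lncRNAs 5 were higher and 2 lower, with a median of 0.17. On chromosome 8, 27 of 36 partners were higher and 1 lower, and of 37 lncRNAs 6 were higher and 3 lower, with a median of 0.08. Both lncRNA medians lay above that of all 774 lncRNAs tested, -0.26. On chromosome 19 the partners went the other way, with 1 higher and 22 lower of 40, and the lncRNAs with 1 higher and 12 lower of 49. All 870 tested genes of chromosome 15 together had a median of 0.53 in this comparison, with 49.7% higher. Those of chromosome 8 had a median of 0.23 with 36.0% higher, and those of chromosome 19 had -0.16 with 15.3% higher. Over all 26023 genes tested 23.5% were higher. The genotype cannot be told apart from the parental line here.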

How the data were processed

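Chromatin-associated RNA of 12 K562 libraries was compared. As the methods state, the authors used Trimmomatic 0.39 for trimming, HISAT2 2.2.1 for alignment to hg38 and HTSeq 0.12.4 for counting reads per gene (the methods also name featureCounts). The deposited values are raw read counts per gene, 1 table per library. The feature type was not given in the sources used here. All libraries gave 0 counts for 93.5% of the 1650 genes nested within a same-strand gene and for 7.81% of the 3303 nested within an opposite-strand gene, so counting was taken as stranded over whole genes. Reads outside genes (13.1% to 16.0% of records) were left out. The tables held 0 ERCC lines, so all changes are relative to other genes.

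Positions came from GENCODE 44. The authors used release 29. Of the identifiers, 99.1% matched and 58.9% had the same version (372 members). edgeR 4.0.16 (R 4.3.3; filterByExpr, TMM, robust quasi-likelihood test, all 4 groups in 1 fit) gave adjusted p-values over 26023 genes by Benjamini-Hochberg, with calls under 0.05. Levels in CPM use TMM library sizes. Ratios are log2((lncRNA + 0.5)/(coding + 0.5)), tested with limma 3.58.1. Both tests were tried on simulated data. DESeq2 1.42.0, other scalings and filters, other member rules and left-out libraries were alternatives. Named lncRNAs are the 8 with the largest change each way per comparison (4 for the interaction) among called members of at least 1 CPM, for the first 3 comparisons also with groups that do not overlap, the 10 highest per kb, the 4 largest ratio changes each way with both genes at 1 CPM or more, and those beside listed genes. Members and lists were chosen with earlier results of these data known. Some lncRNAs that the rule names are not reported here.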

Additional observations from a re-analysis of the deposited data

Results flagged for a closer look

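The change with the MBD6 hairpin differed between TET2 KO and WT (interaction term, edgeR, adjusted over all genes) for each lncRNA named for the interaction. The log2 fold change was higher in the libraries labelled TET2 KO shMBD6 than in WT by 2.72 for USP46-DT (1.45 in TET2 KO against -1.27 in WT), 2.49 for RB1-DT (1.06 against -1.43), 2.44 for LINC01126 (1.43 against -1.0) and 2.43 for MPC1-DT (1.14 against -1.29). The difference was -3.13 for IL12A-AS1 (-1.47 against 1.67), -3.09 for LINC01436 (-0.80 against 2.29), -3.01 for OSMR-DT (-1.0 against 2.01) and -2.998 for MIR3659HG (-1.17 against 1.83). Of the coding partners, OSMR had -2.22 and USP46 0.68 in the same term. RB1 had -1.14, the opposite sign to its lncRNA.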

How the results depend on the processing

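No called direction was turned by any alternative, and the counts of called lncRNAs, partners and ratios stayed within 1.5 times under DESeq2, other scalings and filters, fits of the groups compared alone and each left-out library. The counts that moved did so by construction, since the set itself changed. With starts inside the coding gene also counted, called lncRNAs numbered 468, 416, 345 and 539 (TET2 KO, shMBD6 in WT, shMBD6 in TET2 KO and interaction), called partners 959, 958, 784 and 992, and pairs called in the same direction 207, 202 and 123. With a mean of at least 1 CPM required, called partners numbered 227, 234, 200 and 239. Without lncRNAs that overlap a gene on the same strand, called lncRNAs numbered 128 with shMBD6 in WT and 108 in TET2 KO, and pairs called in the same direction 36 in TET2 KO. With lncRNAs under 20 kb alone, a rule chosen after seeing the data, they numbered 99 (27 higher, 72 lower), 91 (10 and 81), 68 (55 and 13) and 133 (113 and 20). Also added then, a fit without the libraries labelled TET2 KO shMBD6 called 271 lncRNAs in TET2 KO (98 higher, 173 lower) and 232 with shMBD6 in WT (89 and 143).

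The labels do not say whether equal replicate numbers pair libraries across groups. In their deviations from the group means, same-numbered libraries correlated at -0.047 to 0.304 and libraries with unlike numbers at -0.200 to 0.129. A shared replicate structure is thus not excluded, and the main fit has no term for it. A fit with the replicate block called 223, 198, 170 and 270 lncRNAs and 165, 139, 125 and 203 ratios, and moved no count by over 1.5 times. In 25 combinations of a named value and an alternative the value no longer passed the threshold, and those of log2 fold changes are given with the results. For the ratio change of RB1-DT to RB1 with shMBD6 in TET2 KO the values were 1.27 to 1.67, and for that of ENSG00000267011 to HDGFL2 0.964 to 1.53. At a median of 0.880 CPM the depth limits what can be called: 12 of the 786 lncRNAs did not pass the filter.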
